A study of Mus musculus with 8 samples.

Results

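The duodenal bicarbonate, chloride and guanylin genes are 10 genes whose products move bicarbonate, chloride and sodium across the epithelium of the upper small intestine, or set that movement through cyclic GMP. They were chosen by function, with earlier results of these data known: Cftr, Slc26a3, Slc26a6, Slc4a4, Slc9a3, Slc12a2, Car2, Car4, Gucy2c and Guca2b. Every probe set that the platform annotation gives to 1 of these symbols alone was taken, which gave 22 probe sets, with all 10 genes measured, out of 18193 genes with such a probe set. The knockout group was 4 male mice aged 6 months of genotype Pdx1flox/flox;VilCre, in which a villin promoter fragment of 12.4 kb drives Cre in the gut epithelium and the floxed exon 2 of Pdx1 encodes its homeodomain. The control group was 4 male mice of the same age with the genotype Pdx1flox/flox, so both groups carried the floxed alleles and no Cre is named for the controls. All 8 are labelled as brothers from 1 litter. An effect of Cre itself therefore cannot be told apart from the loss of Pdx1. Each sample was tissue, not isolated epithelium, of the first 5 cm of intestine below the pylorus on 1 Affymetrix array, and mice of both groups ate a diet with 4.5% fat.

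The duodenum receives acid from the stomach, and its epithelium answers with secreted bicarbonate. Bicarbonate enters the cell across the basolateral membrane through the sodium bicarbonate cotransporter encoded by Slc4a4, or is made inside the cell by carbonic anhydrase. It leaves across the apical membrane through the Cftr channel and through the chloride/bicarbonate exchangers Slc26a6 and Slc26a3. Uroguanylin, the product of Guca2b, is released into the lumen and binds the receptor guanylate cyclase Gucy2c. The cyclic GMP made there opens Cftr and inhibits the sodium/proton exchanger Slc9a3.

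None of the 22 probe sets of the 10 genes passed the test, and the lowest adjusted p among them was 0.252, for Slc26a6 (limma, Benjamini-Hochberg adjustment over 45037 probe sets, adjusted p under 0.05 counted as called). Over all probe sets 0.0422% were called, so a count of 0 among 22 does not set the genes apart. At an unadjusted p under 0.05, 5 of the 22 probe sets, from Slc26a6, Slc4a4 and Car2, were lower in the knockout and 0 were higher. Over all probe sets 3.62% were lower and 3.5% were higher at that level. The 3 Slc4a4 probe sets among the 5 read 1 gene and are not separate evidence. Every knockout sample lay below every control sample in 4 of the 22 probe sets, 1 of Slc26a6 and 3 of Slc4a4, against 2.33% over all probe sets. In the opposite direction the groups were apart in 0 of the 22, against 2.1%.

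**Figure D1:**
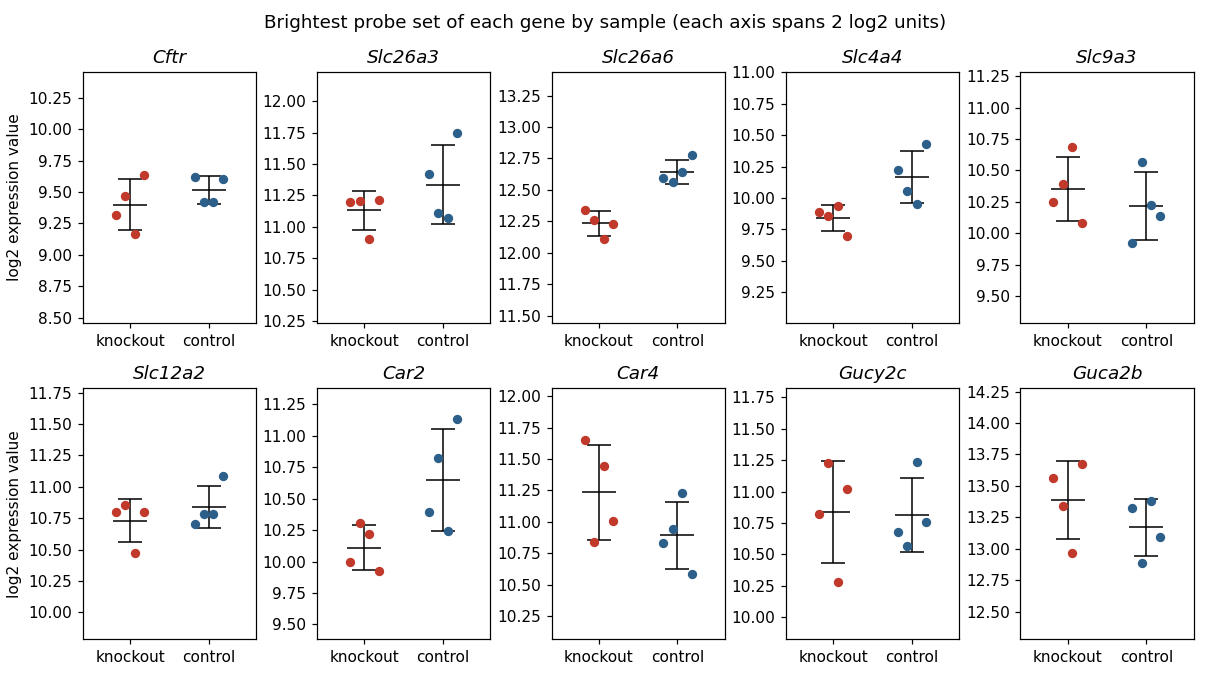
Log2 expression values of the brightest probe set of each of the 10 genes, with 1 point per sample (4 knockout in red on the left, 4 control in blue on the right), the mean as a long bar and the SD as an error bar. Each vertical axis spans the same range of log2 units, and the groups are apart for Slc26a6 and Slc4a4 and overlap for the other genes.

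Pdx1 was lower in every knockout sample, so the labels held for the targeted gene. Its brighter probe set averaged 5.93 ± 0.25 in knockout mice and 8.52 ± 0.36 in control mice (SD, n = 4 each). This was a log2 change of -2.59, and the adjusted p was 4.16e-04 in limma. Which exon it reads was not examined. The tissue carried the transcripts of absorptive enterocytes: Fabp1, a fatty acid binding protein, averaged 14.54 in knockout mice and 14.43 in control mice. Of 9 measured enterocyte markers 8 had values above 0 and 0 were called. Over all 18193 genes 9393 were above 0. Every knockout sample lay above every control sample for Vil1, Fabp1, Fabp2 and Anpep (change 0.43), against 2.1% of all probe sets. Alpi (-0.22) had every knockout sample below every control sample, against 2.33%, and the remaining enterocyte markers overlapped. The log2 of the summed level of these markers was 17.05 to 17.18 in the knockout and 16.92 to 17.08 in the control. Array medians were 5.23 to 5.27. Since whole tissue was measured, fewer cells of a type and less RNA per cell cannot be told apart in any value given here.

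Slc26a6 had the smallest p of the 10 genes. It encodes an apical exchanger of chloride for bicarbonate and oxalate, known in mice for bicarbonate secretion in duodenal villi. Its only probe set read 12.34, 12.26, 12.11 and 12.23 in the knockout samples and 12.60, 12.56, 12.64 and 12.78 in the control samples. The highest knockout sample lay below the lowest control sample, and within either group the samples were close together. Means were 12.23 ± 0.098 in knockout mice and 12.64 ± 0.096 in control mice (SD, n = 4 each). The log2 change was -0.41 with a 95% interval from -0.58 to -0.24. The knockout level was 75.2% of the control level. By unadjusted p (2.91e-04) the probe set was number 52 of 45037, and its adjusted p of 0.252 in limma missed the threshold. Over the alternatives the adjusted p in limma was 0.106 to 0.663 and the change -0.45 to -0.37, so in none of them was Slc26a6 called. Fits for pancreas markers, chosen after seeing the data, are given further on and did not call it either. For scale, the middle of all 18193 genes, from the 5th to the 95th percentile, spanned log2 changes from -0.19 to 0.20.

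Slc26a3 is the relative of Slc26a6 in the same membrane, an exchanger of chloride for bicarbonate whose loss in people causes chloride diarrhoea. Its brightest probe set read 11.20, 11.20, 10.90 and 11.22 in the knockout samples and 11.42, 11.11, 11.07 and 11.74 in the control samples. The groups overlapped, and control 4 was the highest sample. The log2 change was -0.21 with a 95% interval from -0.53 to 0.11 (adjusted p = 0.796 in limma). Without control 4 it was -0.071, and without knockout 3 it was -0.13. Both further probe sets above the array medians had changes of -0.10 and -0.15, and the dim one, with a mean of 3.93 in the knockout and 3.89 in the control, had 0.044. Whether Slc26a6 and Slc26a3 changed unequally was tested on their ratio within each sample, a test chosen after the values were seen. The change of Slc26a6 was 0.20 log2 units more negative (a difference of -0.20), and the groups overlapped (two-sided exact permutation p = 0.229, adjusted p = 0.343 over 3 such ratios, smallest possible p = 0.0286).

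The 250 bases before the annotated starts of these exchangers and of Slc4a4 are shown because Slc26a6 and Slc4a4 had the smallest p of the 10 genes, and Slc26a3 is the counterpart of Slc26a6 at the apical membrane. They come from RefSeq on GRCm38.p6. Windows were kept for 7 of the 10 genes: Cftr, Slc26a3, Slc26a6, Slc4a4, Slc9a3, Car4 and Guca2b. This number was taken after a filter by chromosome, so a gene not listed may still have a start in the source. All 4 windows lie on the plus strand, that of Slc26a6 at chr9:108853793-108854042 and that of Slc26a3 at chr12:31437969-31438218. Slc4a4 has a pair of starts in the table, with windows at chr5:88887010-88887259 and chr5:89027716-89027965. Capitals mark matches to TAATTA, the core that homeodomain factors such as Pdx1 bind, to GTTAAT, part of the site of the intestinal factor HNF1, or to GATAAG, the site of GATA factors, each searched on both strands.
Slc26a6: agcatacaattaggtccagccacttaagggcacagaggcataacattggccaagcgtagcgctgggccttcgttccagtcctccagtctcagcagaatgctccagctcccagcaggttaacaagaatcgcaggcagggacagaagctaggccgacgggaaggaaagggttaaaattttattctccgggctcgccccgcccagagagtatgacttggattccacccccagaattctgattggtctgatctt
Slc26a3: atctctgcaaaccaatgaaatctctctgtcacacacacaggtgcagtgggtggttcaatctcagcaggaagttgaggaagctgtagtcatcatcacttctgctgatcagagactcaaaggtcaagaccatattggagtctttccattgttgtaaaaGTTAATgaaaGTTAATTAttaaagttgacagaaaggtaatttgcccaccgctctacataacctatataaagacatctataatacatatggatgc
Slc4a4, first start: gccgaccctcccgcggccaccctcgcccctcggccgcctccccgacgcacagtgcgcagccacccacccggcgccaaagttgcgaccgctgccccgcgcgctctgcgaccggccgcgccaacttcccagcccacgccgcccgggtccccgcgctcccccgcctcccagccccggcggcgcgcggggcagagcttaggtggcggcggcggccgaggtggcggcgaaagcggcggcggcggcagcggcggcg
Slc4a4, second start: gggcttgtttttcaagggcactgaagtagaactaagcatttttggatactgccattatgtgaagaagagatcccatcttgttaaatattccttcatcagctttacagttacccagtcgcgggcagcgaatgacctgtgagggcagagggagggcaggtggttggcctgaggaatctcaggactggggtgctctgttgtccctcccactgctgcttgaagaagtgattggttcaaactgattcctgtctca

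The Slc26a3 window held 1 match to TAATTA, ending 76 bases before the start, and 2 to GTTAAT, ending 88 and 78 bases before it, the nearer of which overlaps the TAATTA match. The windows of Slc26a6 and both Slc4a4 starts held 0 matches to the 3 motifs. Among the other members with a kept window Guca2b had 1 match to GTTAAT, ending 27 bases before its start. The windows of Cftr, Slc9a3 and Car4 had 0. Of all 32851 windows of this length in the table, 4.84% held TAATTA, 6.43% held GTTAAT and 6.55% held GATAAG. The first Slc4a4 window was 82.0% G and C, that of Cftr 76.4% and that of Slc26a3 38.8%. A match is a run of letters and was not tested as a binding site.

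Cftr encodes the chloride and bicarbonate channel of the apical membrane, opened by cyclic AMP and cyclic GMP through protein kinases. Its brighter probe set read 9.32, 9.47, 9.16 and 9.64 in the knockout samples and 9.62, 9.42, 9.42 and 9.60 in the control samples. The groups overlapped, with both the lowest and the highest sample in the knockout. The change was -0.12 with a 95% interval from -0.35 to 0.11 (adjusted p = 0.850 in limma), which leaves room for a decrease to about the size seen for Slc4a4. Without knockout 3 the change was -0.039, and without knockout 4 it was -0.20. The second probe set, with a mean of 4.83 in the knockout and 4.64 in the control, lay below the array medians and had a change of 0.19.

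Slc4a4 encodes NBCe1, the cotransporter that brings sodium and bicarbonate into the cell from the blood side. Its brightest probe set read 9.89, 9.85, 9.94 and 9.69 in the knockout samples and 10.22, 10.06, 9.96 and 10.43 in the control samples. The groups did not overlap, although knockout 3 and control 3 nearly met. Its mean was 9.84 ± 0.10 in knockout mice and 10.17 ± 0.21 in control mice (SD, n = 4 each). The change was -0.32 with a 95% interval from -0.56 to -0.091 (adjusted p = 0.599 in limma). The next probe sets had changes of -0.28 and -0.30 and were also apart between the groups, with adjusted p of 0.547 and 0.527 in limma. A further one had -0.32 with overlapping groups, and knockout 4, at 7.40, was its lowest sample. Without knockout 4 its change was -0.13. The dim probe set, at 3.60 in knockout mice and 3.69 in control mice, had -0.090. With all samples the knockout level on the 4 brighter probe sets was between 79.9% and 82.1% of the control level, and none was called.

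**Figure D2:**
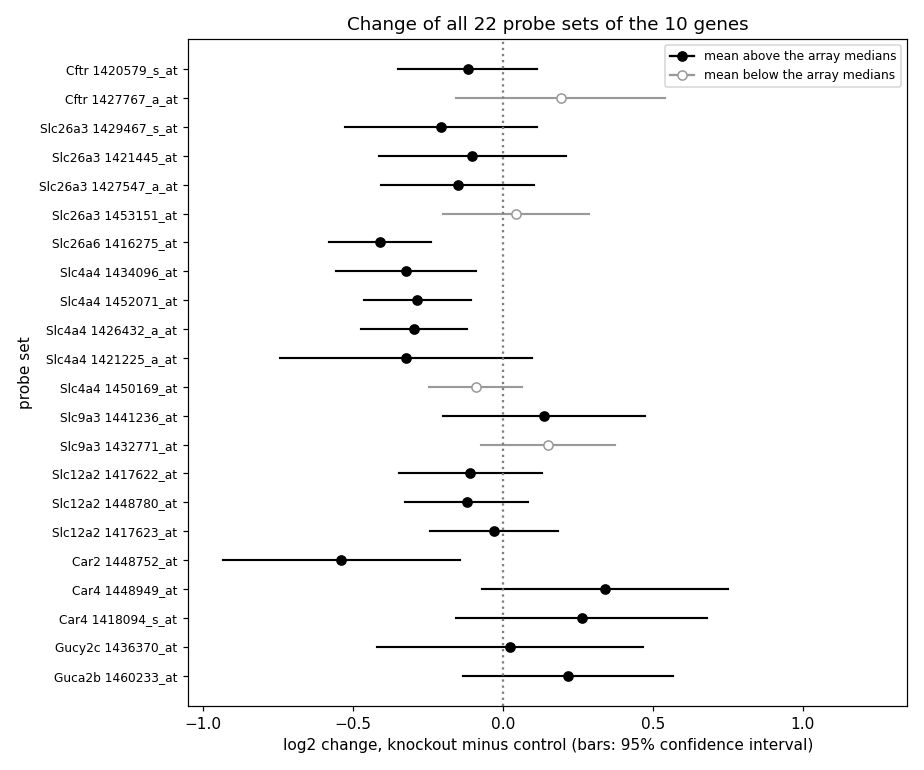
Log2 change, knockout minus control, of all 22 probe sets with 95% confidence intervals from limma. Filled points are probe sets with a mean above the array medians and open points those below. The intervals of Slc26a6, Car2 and 3 Slc4a4 probe sets lie wholly below 0, and those of the other 17 include 0.

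Slc12a2 encodes NKCC1, which loads the cell with chloride from the blood side. Its brightest probe set read 10.80, 10.85, 10.47 and 10.80 in the knockout samples and 10.70, 10.78, 10.78 and 11.08 in the control samples. The groups overlapped, and knockout 3 was the lowest sample. The 3 probe sets had changes of -0.11, -0.12 and -0.029, and the 95% interval of the brightest ran from -0.35 to 0.13 (adjusted p = 0.870 in limma). Without control 4 the brightest had -0.026, and without knockout 3 it had -0.022.

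The carbonic anhydrases had values on opposite sides of 0. Car2 encodes the abundant enzyme of the cytosol, which makes bicarbonate from carbon dioxide and water. It read 9.99, 10.31, 10.22 and 9.93 in the knockout samples and 10.39, 10.83, 10.24 and 11.13 in the control samples. Control 3 lay among the knockout samples, and control 4 was the highest. Means were 10.11 ± 0.18 in knockout mice and 10.65 ± 0.41 in control mice (SD, n = 4 each). The change was -0.54 with a 95% interval from -0.93 to -0.14 (adjusted p = 0.618 in limma). Without control 4 the change was -0.38, and without control 3 it was -0.67, and neither fit called it.

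Car4 encodes a carbonic anhydrase anchored on the outer face of the brush border. Its brighter probe set read 11.65, 10.84, 11.44 and 11.01 in the knockout samples and 10.83, 10.94, 11.23 and 10.58 in the control samples. The groups overlapped, with knockouts 1 and 3 above every control sample. The change was 0.34 with a 95% interval from -0.071 to 0.75 (adjusted p = 0.746 in limma), and 0.26 on the other probe set. Without knockout 1 the brighter one had 0.20. Taken as a ratio of Car2 to Car4 within each sample, chosen after the values were seen, the difference was -0.88 and the groups overlapped (two-sided exact permutation p = 0.0571, adjusted p = 0.171 over 3 ratios).

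Slc9a3 encodes NHE3, the exchanger that takes up sodium against protons at the brush border. The brighter probe set read 10.25, 10.39, 10.68 and 10.08 in the knockout samples and 9.92, 10.57, 10.23 and 10.14 in the control samples. The groups overlapped throughout. The change was 0.14 with a 95% interval from -0.20 to 0.47 (adjusted p = 0.884 in limma), and the dimmer probe set had 0.15. Without knockout 3 the brighter one had 0.027, without control 1 it had 0.040, and without control 2 or knockout 4 it had 0.26 and 0.23.

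For the guanylin pathway the values of the hormone gene and of the receptor gene overlapped between the groups. Guca2b read 13.56, 13.34, 12.97 and 13.68 in the knockout samples and 13.32, 12.89, 13.38 and 13.09 in the control samples. The highest samples were knockouts 4 and 1, while knockout 3 lay below 3 of the control samples. Its change was 0.22 with a 95% interval from -0.13 to 0.57 (adjusted p = 0.807 in limma). Without knockout 3 it was 0.36, and without control 2 or knockout 4 it was 0.12 each. Gucy2c read 10.82, 11.23, 10.28 and 11.02 in the knockout samples and 10.68, 10.57, 11.24 and 10.76 in the control samples. The lowest sample was knockout 3 and the spread within groups was wide. Its change was 0.023 with a 95% interval from -0.42 to 0.47 (adjusted p = 0.988 in limma), so the interval holds changes larger than that measured for Slc26a6 in both directions.

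Guca2a, the gene of guanylin, is no member but encodes the other hormone that binds Gucy2c. It read 11.15, 11.01, 10.68 and 11.23 in the knockout samples and 10.85, 10.60, 11.20 and 10.49 in the control samples. Like Guca2b, it was lowest in knockout 3 among the knockout samples. Its change was 0.23 (adjusted p = 0.794 in limma), and the ratio of Guca2b to Guca2a, the last of the ratios chosen after the values were seen, differed by -0.017 between the groups (two-sided exact permutation p = 0.800). The cyclic GMP kinase Prkg2, which passes the signal of Gucy2c to Cftr, had changes of 0.23, 0.22 and 0.14 on its 3 probe sets, with overlapping groups.

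A list of 84 other genes of these pathways was set beside the members, of which 77 had a probe set. None of their 159 probe sets was called (limma). At an unadjusted p under 0.05 there were 12 lower and 13 higher of the 159, against 3.62% lower and 3.5% higher over all probe sets. Every knockout sample lay below every control sample in 5 of the 159 and above in 11, against 2.33% and 2.1% over all probe sets. By the brightest probe set 38 of the 77 genes had values below 0 and 39 above, with a median change of 0.011. The corresponding median over the 10 members was -0.11, with 6 below 0 and 4 above, and over all 18193 genes it was 0.0046. The list named guanylin signalling also holds other guanylate cyclases, such as Npr2, and phosphodiesterases. It had 10 of 11 genes above 0 (median 0.085), with changes from -0.19 to 0.24. Over all 18193 genes 9393 were above 0 and 8800 below. Basolateral acid-base and chloride supply had 7 of 10 below 0 (median -0.010). Apical exchange and scaffold genes had 6 of 11 above 0, channels 8 of 14, carbonic anhydrases 4 of 12, and receptors and cyclase control 8 of 19.

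**Figure D3:**
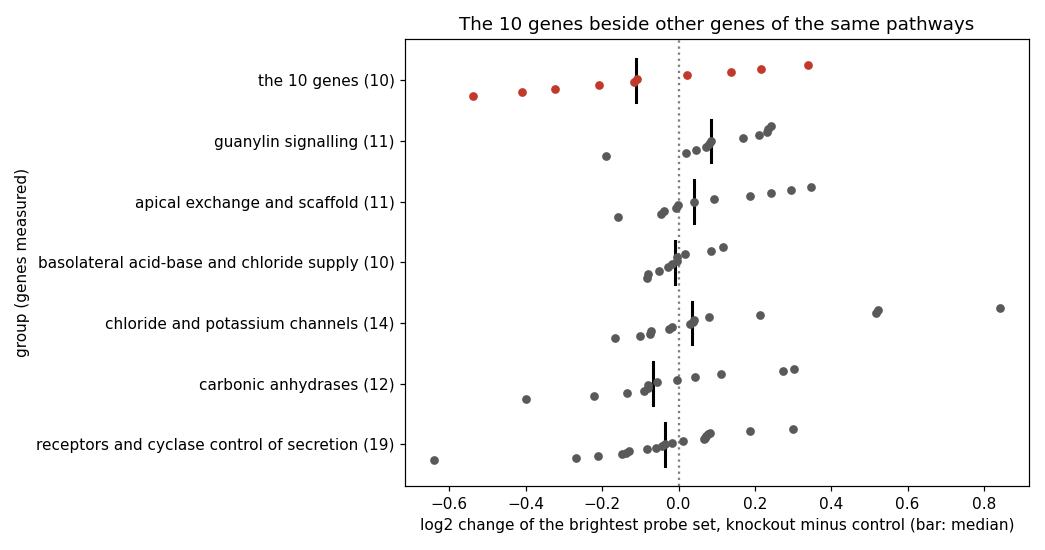
Log2 change, knockout minus control, of the brightest probe set of each gene, with 1 point per gene and a bar at the median. The top row holds the 10 genes, with a median of -0.11, and the rows under it hold 77 other genes of the same pathways by role, whose medians lie between -0.068 and 0.085.

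Of the related genes, the 8 with the smallest p by their brightest probe sets are given here. They were picked by p, so separate groups among them are a description, with no test. Clca4a, of a family of regulators of calcium-activated chloride channels, read 11.21, 11.16, 10.97 and 11.72 in the knockout samples and 10.96, 10.06, 10.14 and 10.55 in the control samples. The groups were apart by a narrow gap between knockout 3 and control 1, and the change was 0.84 (adjusted p = 0.498 in limma). Pdzd3, a scaffold protein that binds Gucy2c, averaged 9.26 ± 0.024 in knockout mice and 9.02 ± 0.089 in control mice (SD, n = 4 each), with separate groups and a change of 0.24 (adjusted p = 0.527 in limma). Slc9a2, the sodium/proton exchanger NHE2 of the brush border, had 0.35 with separate groups. Vipr1, a receptor for the secretion-stimulating peptide VIP, had 0.30 with overlapping groups, and its dimmer probe set had 0.40 with separate groups. Ahcyl1, also called IRBIT, activates both NBCe1 and Cftr, and it had -0.27 with overlapping groups. The dimmer Ahcyl1 probe sets had -0.14 and -0.21, also with overlapping groups.

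The remaining 3 of these 8 were Car8, Car7 and Npr2. Car8 encodes a carbonic anhydrase relative without the enzyme activity and had a change of -0.40 with overlapping groups. Its dimmer probe sets, below the array medians, had -0.46 with separate groups and -0.21 with overlapping groups. Car7, an enzyme of the cytosol, had 0.30, and Npr2, a guanylate cyclase receptor of natriuretic peptides, had -0.19, both with separate groups. The dimmer Car7 probe sets had 0.11 and 0.023 with overlapping groups. Adjusted p values of the 8 were 0.498 to 0.625 in limma. A dimmer probe set of Ano1, a calcium-activated chloride channel, had the smallest p of the list and was named after its values were seen. It averaged 6.27 in knockout mice and 5.83 in control mice (change 0.44, adjusted p = 0.323 in limma), while the brighter Ano1 probe set had 0.038.

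Markers of attached pancreas moved among the samples and are given because pancreatic ducts also express Cftr, Slc26a6, Slc26a3, Slc4a4 and Car2. All 8 measured exocrine markers of 10, acinar enzymes such as Cpa1 and Cela1, had values below 0 with 0 called. The log2 of their summed level was 16.23, 16.20, 17.05 and 16.27 in the knockout samples and 16.88, 16.73, 15.27 and 17.49 in the control samples. Control 3 was thus the lowest of all and control 4 the highest. Among the control samples the 3 brighter Slc26a3 probe sets and the brightest Slc4a4 probe set followed the same order, lowest in control 3, then control 2, control 1 and control 4. The next 3 Slc4a4 probe sets did not, being lowest in control 2, at 9.18, 8.73 and 7.89, against 9.19, 8.98 and 8.53 in control 3. Slc26a6 did not: its control samples read 12.60, 12.56, 12.64 and 12.78, lowest in control 2 and highest in control 4. Car2 was also highest in control 4, but control 1 lay below control 2, and Cftr was lowest in control 2. Knockout 3 was the knockout sample highest in these markers. It was the lowest knockout sample for Slc26a6 (12.11) and for the brightest Slc26a3 (10.90) and Cftr (9.16) probe sets. For the brightest Slc4a4 probe set it was the highest (9.94), and for Car2 only knockout 2 was above it.

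Further fits took the mean log2 value of the exocrine pancreas markers as a covariate, or left out knockout 3 and control 4, the samples highest in it. These fits were chosen after seeing the data. With the covariate the change was -0.41 for Slc26a6 (adjusted p = 0.246 in limma), -0.29 for the brightest Slc4a4 probe set (0.344) and -0.49 for Car2 (0.372). Without those samples the changes were -0.32, -0.27 and -0.41 for the same genes, with adjusted p of 0.507, 0.586 and 0.598 in limma. The brightest Slc26a3 probe set had 0.0057 and Cftr -0.011 in that fit, against -0.21 and -0.12 with all samples. The part of the pancreas in these values was not tested further.

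**Figure D4:**
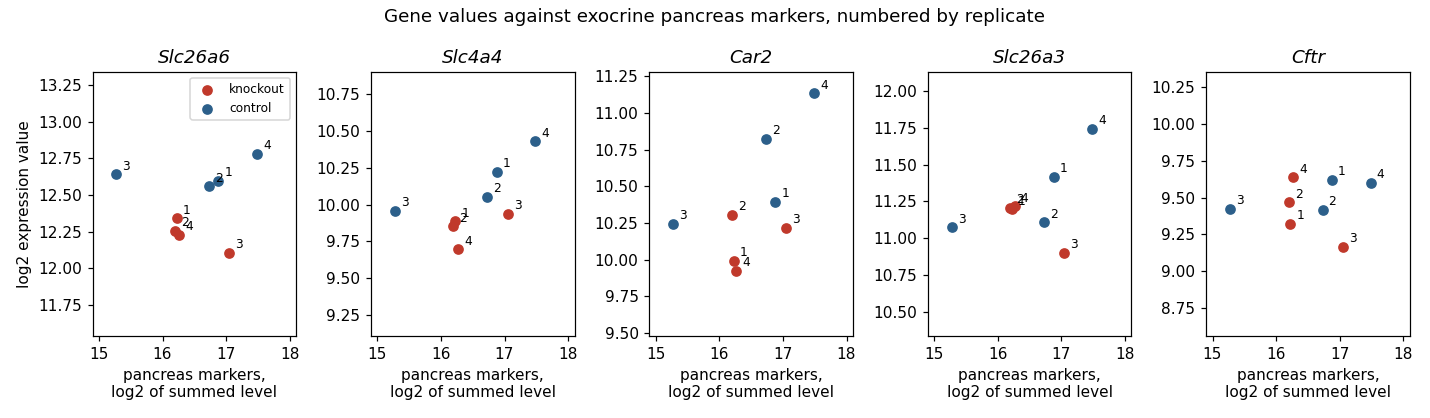
Log2 expression values of Slc26a6, Slc4a4, Car2, Slc26a3 and Cftr (brightest probe sets, vertical axes) against the log2 of the summed level of 8 exocrine pancreas markers (horizontal axes), with 1 point per sample numbered by replicate, knockout in red and control in blue. Control 3 lies lowest and control 4 highest on the horizontal axis, and Slc26a6 in every control sample is above all 4 knockout samples.

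Markers of other tissues were also read in both groups. The 4 measured Brunner gland markers of 5, among them Tff2 and Gkn3, all had values below 0 with 0 called, and their summed level was 13.95 to 15.07 in the knockout and 14.71 to 15.11 in the control. The lowest were knockouts 3 and 1, whereas Slc26a6 was lowest in knockout 3 and highest of the knockout samples in knockout 1. Gastric markers, 5 of 6 measured and 5 below 0, summed to 13.96 to 14.30 in the knockout and 13.75 to 15.08 in the control. Control 2, the highest in them, was second to control 4 in Car2. Gkn1 and Gkn2 averaged 12.96 and 13.50 over all samples and made up most of that sum. Pgc averaged 7.34, Atp4b 5.80 and Atp4a 4.90, the last below the array medians. All 8 smooth muscle markers had values above 0, with 13.14 to 13.55 in the knockout and 13.05 to 13.21 in the control. Red cell markers, 4 of 8 measured, summed to 6.29 to 7.06 in the knockout and 6.57 to 6.79 in the control. Of these, Hba-a1 (3.63 over all samples), Slc4a1 (4.02) and Epb42 (4.39) lay below the array medians, and Alas2 averaged 5.68. Their sum therefore holds an unknown share of background. Goblet, leukocyte and colon markers had 3 of 7, 5 of 6 and 2 of 5 values above 0 in turn, each with overlapping sums. The colon markers Car1 (4.37) and Hoxb13 (4.77) and the Brunner gland marker Egf (4.36) also lay below the array medians. The part of these tissues in the values of the 10 genes was not tested.

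Genes with the most similar pattern were sought for Slc26a6 and Slc4a4, the members with the smallest p, by the root mean square difference over the 8 samples after each probe set was centred on its own mean. Fth1, the ferritin heavy chain, was nearest to Slc26a6, at 0.058 log2 units. Its values on that probe set were 13.76, 13.73, 13.54 and 13.78 in the knockout samples and 14.05, 13.97, 14.06 and 14.12 in the control samples. As for Slc26a6, knockout 3 was the lowest sample and control 4 the highest. Rorb, a nuclear receptor, and the alkaline phosphatase gene Alppl2 came next at 0.060 and 0.062. The Rorb probe set, with a mean of 3.83 in the knockout and 4.25 in the control, lay below the array medians. For Slc4a4 the likeness was taken to the probe set with its smallest p, not the brightest, which read 8.68, 8.69, 8.58 and 8.50 in the knockout samples and 8.94, 8.73, 8.98 and 8.97 in the control samples. The nearest to it were Shc2 at 0.039, Sfmbt2 at 0.044 and 4932435O22Rik at 0.047, all dimmer than the array medians. These probe sets were picked for their likeness out of the whole table, so their separation of the groups is a description, with no test.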

How the data were processed

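RNA from 8 whole-tissue samples, 4 knockout and 4 control, was measured on Affymetrix arrays. The authors deposited 1 table of log2 values per probe set and array. The submitters' processing notes name Partek 6.4 with no role. Which background correction, summarisation and normalization were used is not given in the sources here. Arrays have no read depth, so their number limits the precision. That the scale is log2 was judged from the range of the values. Of 45101 probe sets, 64 array controls were left out. Gene symbols were those of the platform annotation held by GEO (34945 probe sets with 1 symbol, 932 with several, 9160 with none).

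Each of the 45037 probe sets was fitted with lmFit and eBayes (limma 3.58.1, R 4.3.3), knockout minus control, two-sided, without covariates, and p-values were adjusted by the Benjamini-Hochberg method. Scripts were tested on simulated data. The labels call the samples biological replicates and brothers from 1 litter, with no pairing stated. Each gene of a list is represented by its brightest probe set, that of highest mean over the 8 arrays. All member probe sets are named, with Pdx1, Vil1 (12.79 in the knockout and 12.60 in the control), called related genes or else the 8 with the smallest p, and 3 genes of like pattern for each of 2 members. Members and lists were chosen with earlier results of these data known. Alternatives were a replicate block, other scalings, a minimum and a floor at 5, other priors, array weights and each sample left out. Figures were drawn with matplotlib 3.10.9.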

Additional observations from a re-analysis of the deposited data

Results flagged for a closer look

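In 3 of the 44 groups of 4 samples examined, 2 groups for each of the 22 probe sets, 1 sample stood far from the other 3 by Dixon's ratio of the gap to the range, past its 95% critical value. Chance alone marks about 5% of such groups. For the brightest Slc26a3 probe set, knockout 3 was the lowest of the knockout samples with a ratio of 0.946. For the brightest Slc12a2 probe set, knockout 3 was again the lowest, with a ratio of 0.851. For the dimmest of the 4 brighter Slc4a4 probe sets, knockout 4 was the lowest, with a ratio of 0.855. Knockout 3 was also the knockout sample highest in exocrine pancreas markers, at 17.05 against 16.20 to 16.27 in the other knockout samples, and its part in these values was not tested.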

How the results depend on the processing

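Of 369 refitted values of the 22 probe sets, 351 kept their direction and their side of the threshold, 0 became called and 18 changed sign, all at an adjusted p far from 0.05. The counts of called probe sets among the members and among the related genes stayed at 0 in each alternative, and 19 over all probe sets became 4 with values under 5 set to 5 and 13 to 20 with 1 sample left out. Signs changed for the dim Cftr probe set with the floor (-0.032), the dimmest Slc12a2 probe set with array weights (0.014) and Gucy2c with repeated quantile normalization (-0.023) or the pancreas covariate (-0.037). They also changed without knockout 3 and control 4 together for the brightest (0.0057) and second brightest (0.087) Slc26a3 probe sets and the brightest (0.060) and dimmest (0.11) of Slc12a2. With single samples left out, the ranges that crossed 0 were -0.22 to 0.043 for the second brightest Slc26a3 probe set (above 0 without control 4), -0.079 to 0.040 for the dimmest Slc12a2 probe set (above 0 without control 4 or knockout 3, at 0.040 each), -0.11 to 0.21 for Gucy2c (below 0 without control 1, control 2, knockout 2 or knockout 4, at -0.021, -0.057, -0.11 and -0.037) and -0.012 to 0.14 for the dim Slc26a3 probe set (below 0 without control 2, knockout 1 or knockout 4, at -0.0092, -0.0022 and -0.012). The cause was not tested. Same-numbered samples of the 2 groups did not deviate together (correlations of -0.090, -0.12, -0.18 and 0.076), and no sample correlated best with its own number. The replicate block gave 24 called probe sets over the table, 0 among the members, and an adjusted p of 0.663 for Slc26a6. Probe sets near or below the array medians carry an unknown share of background.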
